A study of Mus musculus with 4 samples.

Results

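The genes that make and use small RNAs were examined in mouse epiblast stem cells given an esiRNA pool. The set held 10 genes: Drosha and Dgcr8, Xpo5, Dicer1 and Tarbp2, Ago1, Ago2, Ago3, Ago4 and Adar. They were chosen by gene symbol, with the older names Eif2c1 to Eif2c4 accepted for the Argonautes, and they took 11 of the 15429 rows of the expression table because Ago2 stood in 2 rows. Of these 11 rows, 10 had a mean of at least 1 FPKM (fragment numbers corrected for gene length and library depth) and entered the test, and Ago4 did not.

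Polyadenylated RNA was sequenced from epiblast stem cells of the single line OE7, derived from a post-implantation mouse embryo and carrying an Oct4-Gip transgene, a fluorescent reporter of Oct4, in both groups. Cells at passages 21 to 25 were kept on fibronectin in N2B27 medium with Activin A (20 ng/ml) and Fgf2 (12 ng/ml). They were reverse transfected in 6-well plates with 1000 ng of esiRNA and 2 µl of lipofectamine 2000. The control group received Luc esiRNA, against luciferase, and the other group received Tox4 esiRNA, with 2 libraries each. Both groups therefore carried a transfected small RNA pool, and untransfected cells were not part of the comparison. Whether the 2 libraries of each group came from separate cultures is not stated, so the p-values speak of the spread between libraries alone, and that spread may be technical.

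Most microRNAs start as hairpins in long nuclear transcripts. The Microprocessor, made of the nuclease Drosha and the RNA-binding protein Dgcr8, cuts out the hairpin, and Exportin 5 (Xpo5) carries it to the cytoplasm. There Dicer, with its partner TRBP (Tarbp2), cuts the hairpin to a short duplex, and 1 strand is loaded into an Argonaute protein. An esiRNA pool is made by digesting long double-stranded RNA in the test tube, so it is supplied already diced and enters at the Argonaute step. Ago2 is the Argonaute with the well-known slicing activity in mammals. Mouse embryonic stem cells that lack Dgcr8 or Dicer lose their microRNAs and differentiate poorly.

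The 4 libraries held from 12778047 to 19008811 reads on genes, worked back from the FPKM values. Tox4, the target, fell with its esiRNA (16.7 and 17.5 FPKM against 8.65 and 8.89 FPKM; -0.89 on the log2 scale, SE 0.05, limma adjusted p = 0.00228), though part of its exons are shared with Mettl3 and Rab2b on the other strand. The 9 epiblast markers summed to 1418 to 1466 FPKM in every library, and Sox2 alone of them was called, as higher (76.3 and 76.4 FPKM against 93.2 and 87.6 FPKM, 0.24 on the log2 scale, limma adjusted p = 0.0355). Pou5f1 differed by 0.03 on the log2 scale (SE 0.04, adjusted p = 0.717 in limma). Fibroblast markers (6 of 7 in the table) summed to 20.5 and 20.8 FPKM with Luc esiRNA and to 18.8 and 19.5 FPKM with Tox4 esiRNA, and no member of that list was called. Neural markers (4 of 5 in the table) summed to 21.4 and 22.1 FPKM with Luc esiRNA and to 28.1 and 31.0 FPKM with Tox4 esiRNA, and Sox1 alone of that list was called. The blood cell marker Cd68 and the germ cell marker Sycp3, each the only gene of its list in the table, were called lower. Sycp3 was at 0.615 and 0.591 FPKM with Tox4 esiRNA and passed the filter of 1 FPKM only through the Luc libraries.

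None of the 10 tested rows of the small RNA machinery passed the threshold after Tox4 knockdown (limma on log2(FPKM + 1), adjusted p under 0.05 over 12403 genes), where 4.51% of all tested genes did (1.89% as higher and 2.62% as lower). At an unadjusted p under 0.05 there was 1 row, Xpo5, against 21.6% of all tested genes. A second test, limma-voom on the recovered reads, also called Xpo5 alone, against 11.8% of all tested genes. The 10 log2 fold changes had a median of 0.01 and ran from -0.11 to 0.15, and 6 were above 0. The median over all tested genes was -0.0034. Written as folds of FPKM + 1, the 95% intervals of the 10 rows lay between 0.787 and 1.20. Ago3, the lowest of the tested rows, had the widest interval. Folds of FPKM + 1 understate folds of FPKM at such a level, and with a pseudocount of 0.1 the log2 fold change of Ago3 was -0.07 with an SE of 0.23. In simulated data the test recovered 80.0% of 2-fold but only 18.5% of 1.3-fold changes, so small changes could have been missed. The simulation gave every gene the same assumed spread beyond counting error, so these shares need not hold for each member. In bulk RNA, fewer cells of a type and less RNA per cell cannot be told apart.

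**Figure D1:**
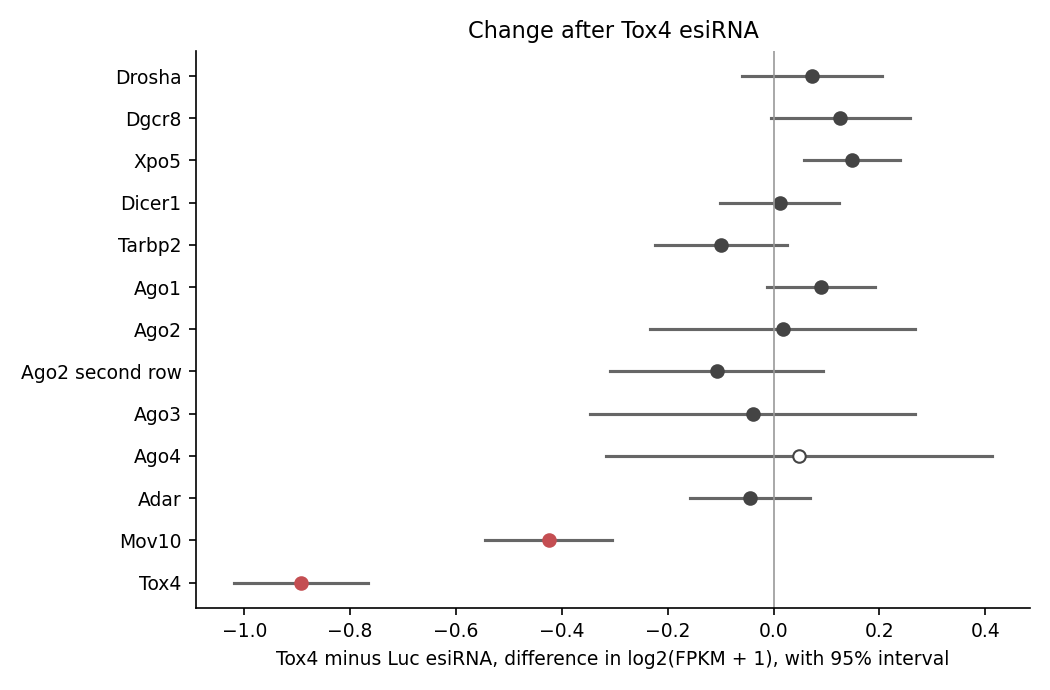
Difference in log2(FPKM + 1) between Tox4 and Luc esiRNA (x axis) for each row of the small RNA machinery and for Mov10 and Tox4, with 95% intervals from limma (2 libraries in each group). The members lie between -0.11 and 0.15, while the red points, past the threshold, are Mov10 at -0.42 and Tox4 at -0.89; the open point, Ago4, was below the filter and comes from a fit without it.

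The members spanned a wide range of levels. Ago1 was the highest with a mean of 51.8 FPKM over the 4 libraries, above 90.4% of all rows of the table, and Ago4 the lowest with 0.832 FPKM. Drosha (40.8 FPKM) and Xpo5 (40.8 FPKM) came next and their ranges overlapped. They were followed by the second Ago2 row (26.9), then Dicer1 (21.4) and the first Ago2 row (20.8), which overlapped each other. Adar (13.8), Dgcr8 (11.1) and Tarbp2 (9.69) came below, each apart from its neighbour in all 4 libraries, and Ago3 was at 1.17 FPKM. FPKM is scaled per length, and the lengths worked back from the values differed from the annotation by gene. They were 38.4% of the annotated exon bases for Drosha, 40.3% for Ago4 and 54.1% for Xpo5, but 96.6% for Ago1. The smallest whole length that matched was taken, so a length and its reads may be too small by a common factor. The order of the levels depends on the gene models that were used.

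**Figure D2:**
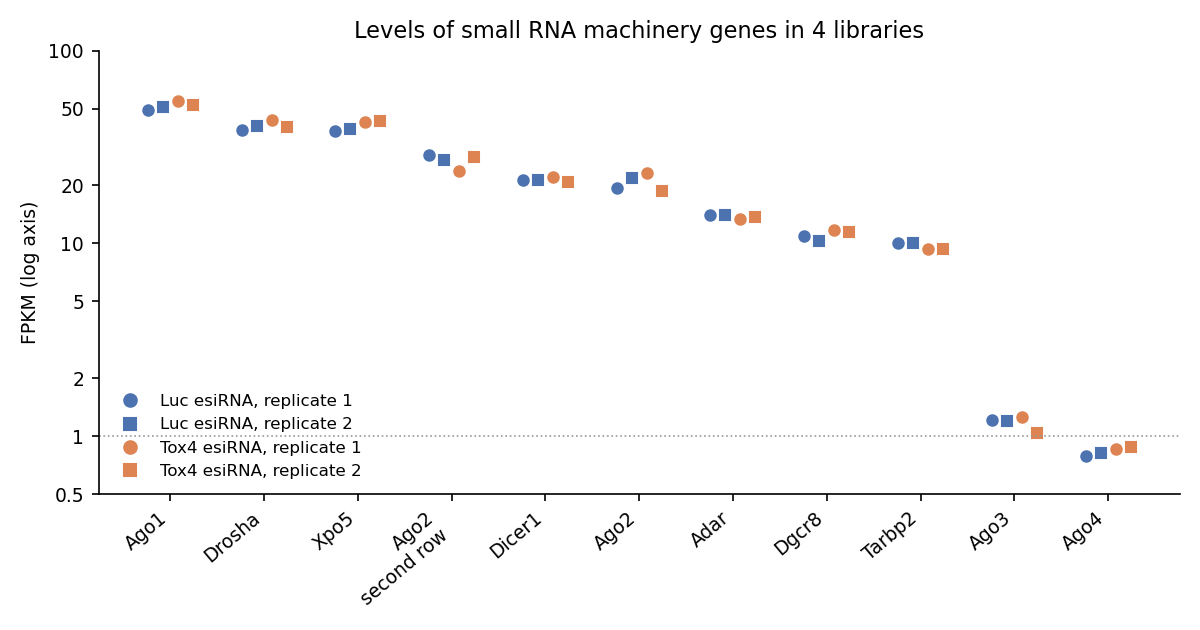
FPKM on a log axis for each row of the small RNA machinery in the 4 libraries (circles, replicate 1; squares, replicate 2; blue, Luc esiRNA; orange, Tox4 esiRNA), ordered by mean level. On this log axis the 4 points of a gene lie close together, from Ago1 near 51.8 FPKM to Ago4 at 0.832 FPKM. The replicates of both Ago2 rows differed more than those of most genes of a similar level. The dotted line marks the 1 FPKM filter.

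Drosha (ENSMUSG00000022191, chromosome 15, 12824815 to 12935291, plus strand, GRCm38), the nuclease of the Microprocessor, was at 38.7 and 40.8 FPKM with Luc esiRNA (replicates 1 and 2, in this order throughout). With Tox4 esiRNA it was at 43.7 and 40.1 FPKM. The groups overlapped, since Tox4 replicate 2 lay below Luc replicate 2. limma put the log2 fold change at 0.07 (SE 0.05) with a 95% interval from -0.06 to 0.21 and an adjusted p of 0.499.

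Dgcr8 (ENSMUSG00000022718, chromosome 16, 18253948 to 18289246, minus strand), the hairpin-binding partner of Drosha, had 10.9 and 10.3 FPKM with Luc esiRNA and 11.8 and 11.5 FPKM with Tox4 esiRNA. Both Tox4 libraries were above both Luc libraries, as were the groups apart in either direction in 52.0% of all tested genes. The log2 fold change of 0.13 (SE 0.05, 95% interval -0.0052 to 0.26) did not pass (limma adjusted p = 0.252). Of the exon bases of Dgcr8, 825 are shared with Trmt2a on the opposite strand. Drosha stood at 3.48 to 3.97 times the FPKM of Dgcr8 in the 4 libraries, with the 2 Tox4 values inside or below the Luc range of 3.57 to 3.97.

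Dgcr8 carries a microRNA hairpin in its own exons, Mir1306 (chromosome 16, 18284239 to 18284317, minus strand), and Microprocessor cutting of hairpins in the Dgcr8 transcript is a known feedback on the complex. Its 3p arm is shown because it lies inside the transcript of a member, with the seed (bases 2 to 8) in capitals, from RefSeq on GRCm38.p6.
mmu-miR-1306-3p: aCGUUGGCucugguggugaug
The Mir1306 row was listed at 0 in all 4 libraries, while the Dgcr8 row held 726 to 1020 reads. How reads in exons shared by both were assigned is not given in the sources used here, so the 0 says nothing of how often the hairpin was cut.

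Xpo5 (ENSMUSG00000067150, chromosome 17, 46202782 to 46243598, plus strand), the exporter of microRNA precursors, was the member that came nearest to the threshold. It had 38.2 and 39.2 FPKM with Luc esiRNA and 42.7 and 43.2 FPKM with Tox4 esiRNA, on 2754, 2232, 2389 and 2097 reads. All Tox4 values were above all Luc values, and the ratio of the group means was 1.11. The log2 fold change of 0.15 (SE 0.04, 95% interval from 0.06 to 0.24) did not pass in limma (adjusted p = 0.0851). In limma-voom on the recovered reads it was 0.15 as well and passed (adjusted p = 0.0252), among the 5.95% of tested genes that this test called higher. Among all tested genes 26.3% had a larger change in either direction.

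Dicer1 (ENSMUSG00000041415, chromosome 12, 104687742 to 104751952, minus strand), which cuts precursor hairpins and long double-stranded RNA, was at 21.3 FPKM in each Luc library. With Tox4 esiRNA it was at 22.1 and 20.9 FPKM. The Tox4 values lay on either side of the Luc values. The difference was 0.01 on the log2 scale (SE 0.05, 95% interval from -0.10 to 0.12, adjusted p = 0.921 in limma), and 91.4% of all tested genes had a larger change. The genes with the most similar course over the 4 libraries were Gmfb, Ccna2 and Bmyc. Their distances from Dicer1, taken on log2(FPKM + 1) after centring each gene, were 0.00724, 0.00906 and 0.0102, against a median of 0.143 over 12402 genes. With 4 libraries and a nearly flat course this likeness is a description only.

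Tarbp2 (ENSMUSG00000023051, chromosome 15, 102518192 to 102523676, plus strand), whose protein assists Dicer and the loading of Argonautes, was at 10.1 FPKM in both Luc libraries and at 9.31 and 9.34 FPKM in the Tox4 libraries. Both Tox4 libraries were below both Luc libraries. Its replicates differed less than those of nearly all genes of a similar level, with only 0.0823% of 4863 such genes having a smaller spread. limma draws such a variance towards that of other genes, and the log2 fold change of -0.10 (SE 0.05, 95% interval -0.22 to 0.03) did not pass (adjusted p = 0.330). The ratio of Dicer1 to Tarbp2 FPKM was 2.12 in both Luc libraries and 2.38 and 2.24 in the Tox4 libraries.

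How the summed FPKM of Ago1 to Ago4 was divided depended on how Ago2, which has 2 rows, was taken. Counting its first row alone, Ago1 made up 68.3% to 71.7% of the sum in the 4 libraries, Ago2 25.7% to 29.0%, Ago3 1.42% to 1.72% and Ago4 1.07% to 1.20%. With the FPKM of both Ago2 rows added, an alternative chosen after seeing the data, Ago1 made up 49.4% to 52.7% and Ago2 45.2% to 48.5%. The second row held only 466, 347, 298 and 307 recovered reads, against 4151, 3666, 3827 and 2691 in the first. Its FPKM is high because its length is 835 bp, against 10957 bp. If both rows are parts of the same gene, adding their FPKM overstates Ago2. Counting the first row alone, the ranges of the groups overlapped for Ago1, Ago2 and Ago4, while both Tox4 shares of Ago3 (1.57% and 1.42%) were below both Luc shares (1.72% and 1.59%). With both rows added it was the Ago1, Ago2 and Ago4 shares that did not overlap and the Ago3 shares that did. The FPKM of the groups did not overlap in 52.0% of all tested genes. Shares of a sum also do not vary independently, since a lower share of Ago2 raises the others. No shift between the Argonautes is read from these shares.

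Ago1 (ENSMUSG00000041530, chromosome 4, 126435012 to 126468583, minus strand) had 49.1 and 51.3 FPKM with Luc esiRNA and 54.6 and 52.3 FPKM with Tox4 esiRNA. The groups did not overlap, and the ratio of their means was 1.07. On the log2 scale this was 0.09 (SE 0.04, 95% interval from -0.01 to 0.19), which did not pass in limma (adjusted p = 0.284).

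Ago2 stood in the table under 2 identifiers. The first, ENSMUSG00000036698, is the Ago2 gene of GENCODE M21 (chromosome 15, 73095844 to 73184935, minus strand), with a length of 10957 bp behind its FPKM values, and 219 of its exon bases are shared with Chrac1 on the opposite strand. The second, ENSMUSG00000093631, was not matched in that release and had a length of 835 bp. How reads were divided between them is not given in the sources used here, so the level of Ago2 is uncertain.

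The first Ago2 row had 19.5 and 21.8 FPKM with Luc esiRNA and 23.2 and 18.8 FPKM with Tox4 esiRNA. The second had 28.7 and 27.1 FPKM with the former and 23.7 and 28.1 FPKM with the latter. The libraries came in a different order in the 2 rows: Tox4 replicate 1 was the highest in the first and the lowest in the second, and Luc replicate 1 and Tox4 replicate 2 were the 2 lowest in the first and the 2 highest in the second. The replicates of the first row differed more than those of 98.3% of genes of a similar level, and those of the second row more than 97.1%. Neither row passed in limma, with log2 fold changes of 0.02 (SE 0.10) and -0.11 (SE 0.08) and adjusted p of 0.950 and 0.515.

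Adding the reads of both Ago2 rows gave 243 and 268 RPM (reads scaled to the total of each library) with Luc esiRNA. With Tox4 esiRNA it gave 280 and 235 RPM. The first row carried most of the sum, since the second held only 20.2 to 24.5 RPM. The Tox4 libraries were the highest and the lowest of the 4, and the log2 fold change of the sum was 0.01 (SE 0.06, 95% interval -0.11 to 0.14, limma-voom adjusted p = 0.922). The sign of the first row turned when Luc replicate 1 or Tox4 replicate 1 was left out (-0.06 and -0.13).

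**Figure D3:**
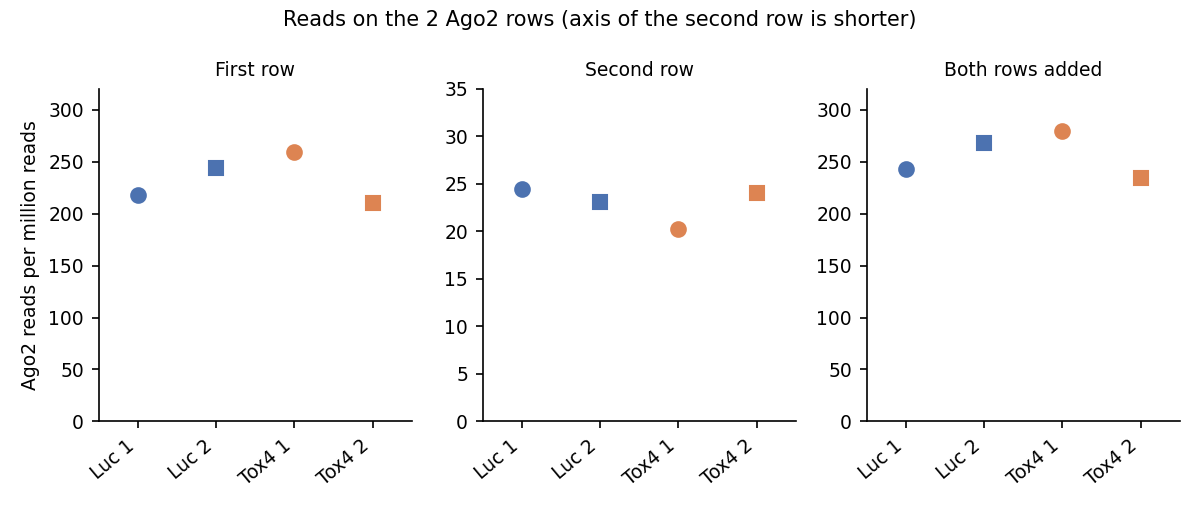
RPM (reads scaled to the library total, y axes from 0) on the first Ago2 row, on the second and on both added, in the 4 libraries (circles, replicate 1; squares, replicate 2; blue, Luc; orange, Tox4). Tox4 replicate 1 is the highest in the first row and the lowest in the second, and the Tox4 libraries are the highest (280) and the lowest (235) of the sum.

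Ago3 (ENSMUSG00000028842, chromosome 4, 126331704 to 126429556, minus strand) was at 1.21 and 1.19 FPKM with Luc esiRNA and at 1.25 and 1.04 FPKM with Tox4 esiRNA. Its groups overlapped, and the difference of -0.04 on the log2 scale (SE 0.13) did not pass in limma (adjusted p = 0.900). Ago4 (ENSMUSG00000042500, chromosome 4, 126489541 to 126533472, minus strand) rested on 43, 35, 36 and 32 recovered reads, or 0.789, 0.814, 0.852 and 0.873 FPKM. Both Tox4 values of Ago4 were above both Luc values. Without the filter on low values it differed by 0.05 on the log2 scale (SE 0.15, 95% interval from -0.32 to 0.41, adjusted p = 0.906 in limma), the widest interval of the set. Ago1, Ago3 and Ago4 are neighbours on chromosome 4 and are read from the same strand, and in each library Ago1 was the highest of the 3 and Ago4 the lowest.

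Adar (ENSMUSG00000027951, chromosome 3, 89715022 to 89753446, plus strand) edits adenosine in double-stranded RNA, and a longer form of it is induced by interferon. It was at 14.1 and 14.0 FPKM with Luc esiRNA and at 13.4 and 13.7 FPKM with Tox4 esiRNA. Both Tox4 libraries were lower, by less than 1 FPKM. In limma the change was -0.04 on the log2 scale (SE 0.05, 95% interval from -0.16 to 0.07, adjusted p = 0.639). Of its exon bases, 1365 are shared with Chrnb2 on the opposite strand, and the table does not separate the long form from the short one.

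Around these core genes, 6 lists of cofactors held 80 genes, of which 77 were tested. Mov10 fell, none rose and 76 did not pass (limma), and the median log2 fold change was 0.01. This is 1 call in 77, where 4.51% of all tested genes were called. Mov10 is an RNA helicase that binds Argonautes and restricts retroelements. It had 21.2 and 20.0 FPKM with Luc esiRNA and 14.9 and 15.3 FPKM with Tox4 esiRNA (log2 fold change -0.42, SE 0.05, limma adjusted p = 0.0140). Its call was lost without Luc replicate 1 or Luc replicate 2 (adjusted p = 0.10 and 0.0745) and without an intensity trend (0.0618). In limma-voom 2 of the 77 genes were higher and 5 lower, where 5.95% and 5.87% of all tested genes were.

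Of 13 cofactors of primary microRNA processing, such as the helicases Ddx5 and Ddx17 and the splicing factor Srsf3, none passed in limma (0 at an unadjusted p under 0.05, 0 in limma-voom). With 4.51% of all tested genes called, 0 of 13 is near the background, as are the other lists with 0 calls. The changes ran from -0.04 to 0.10 with a median of 0.03. The largest were those of the cap-binding gene Ncbp2 (0.10, SE 0.04) and of Srsf3 (0.08, SE 0.05). Of 13 Dicer partners, loading chaperones and cofactors of the Argonaute complex, Mov10 fell and 12 did not pass. Hsp90ab1, a chaperone that helps load Argonautes, was at 2349, 2293, 2270 and 2332 FPKM. The co-chaperone gene Ptges3, named after its values were seen, passed as lower in limma-voom alone (-0.16, adjusted p = 0.0193).

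Downstream of the Argonautes, the GW182 proteins recruit deadenylases to a bound transcript, and decapping and decay follow. Of 16 genes of the first group none passed (2 at an unadjusted p under 0.05, 1 in limma-voom; median 0.01), and of 12 decapping and decay genes none passed (2 and 2; median -0.0059). Tnrc6c, a GW182 gene, was at 11.2 and 11.4 FPKM with Luc esiRNA and 13.9 and 12.8 FPKM with Tox4 esiRNA (log2 fold change 0.22, SE 0.06). Its adjusted p was 0.0933 in limma and 0.00199 in limma-voom. The other GW182 genes had log2 fold changes of 0.12 (Tnrc6a) and -0.01 (Tnrc6b). Cnot11 of the deadenylase complex was at 0.13 (SE 0.04). The decapping gene Dcp1b (0.30, SE 0.08) and its cofactor gene Pnrc1 (-0.19, SE 0.04) did not pass in limma (adjusted p = 0.0871 and 0.0620) but did in limma-voom (0.00847 and 0.0236). Pnrc1 also passed in limma with a minimum of 5 FPKM (0.0321).

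Of 10 tested genes that control let-7 or act on small RNA ends none passed in limma (1 at an unadjusted p under 0.05, 0 in limma-voom; median -0.0045). Lin28a, which blocks let-7 maturation in pluripotent cells, was at 173, 169, 158 and 163 FPKM (-0.09, SE 0.04), and Lin28b at 24.8, 24.9, 25.8 and 24.6 FPKM (0.02, SE 0.04). The tailing enzyme gene Zcchc6, now called Tut7, was at 0.09 (SE 0.05). Of 13 genes of the piRNA pathway, the germline branch of small RNA silencing, 6 were matched and 2 tested, Tdrkh (0.18, SE 0.04) and Pld6 (-0.15, SE 0.12). Neither passed in limma (adjusted p = 0.0581 and 0.525), and Tdrkh passed in limma-voom (0.00903) and in limma with a minimum of 5 FPKM (0.0325). The Argonaute relative Piwil2 was at 0 to 0.880 FPKM.

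**Figure D4:**
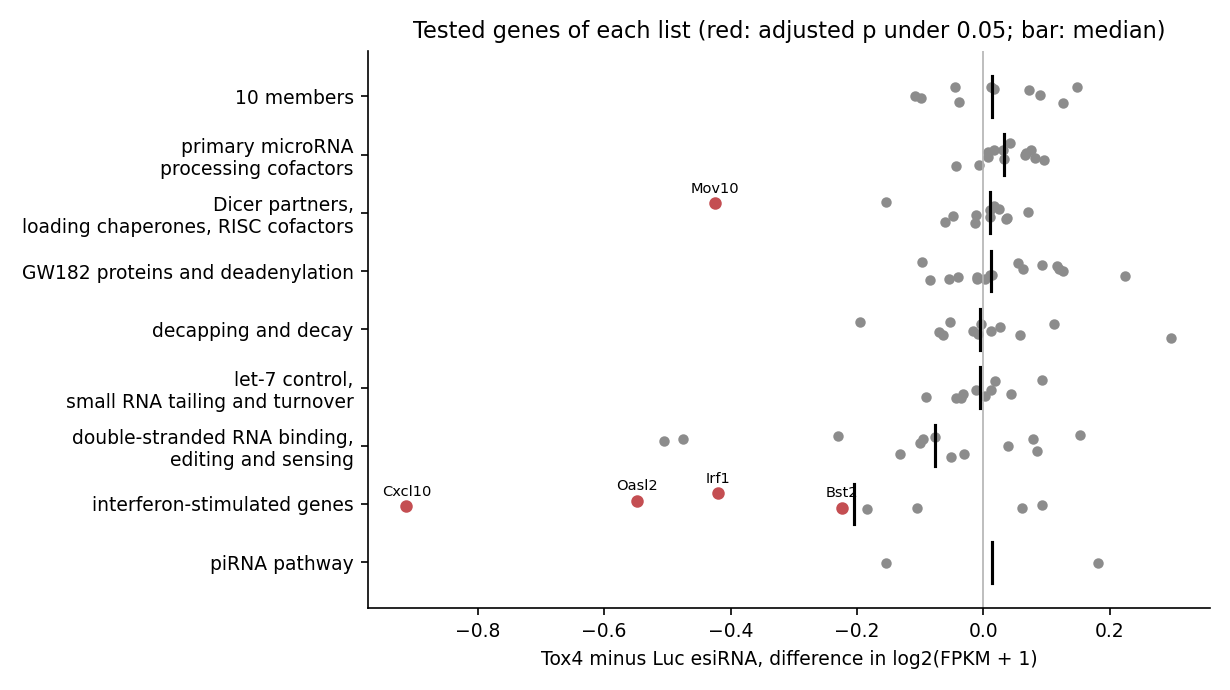
Difference in log2(FPKM + 1) between Tox4 and Luc esiRNA (x axis) for each tested gene of the small RNA machinery and of 8 related lists, with red points past the limma threshold and a bar at each median. The red points are Mov10 and 4 interferon-stimulated genes, all below 0.

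Of 13 tested genes that bind, edit or sense double-stranded RNA none passed in limma, and the median was -0.08. At an unadjusted limma p under 0.05 there were 3, all lower. Among all 12403 tested genes 2674 (21.6%) had such a p, 1431 of them lower. Zbp1, a sensor of Z-form nucleic acid, averaged 3.28 ± 0.144 FPKM in the Luc libraries against 2.03 ± 0.389 FPKM in the Tox4 libraries (SD, n = 2; -0.50, SE 0.12, limma adjusted p = 0.0733), and the long double-stranded RNA sensor Ifih1 at 1.62, 1.42, 0.821 and 0.803 FPKM (-0.47, SE 0.12, adjusted p = 0.0948). In both genes the Tox4 libraries were below the Luc libraries, and both passed as lower in limma-voom (0.0309 and 0.00299), as did Zbp1 in limma without Tox4 replicate 1 (0.0439). Ifih1 was below 1 FPKM in both Tox4 libraries, so it passed the filter only through the Luc libraries. Eif2ak2, the kinase PKR, was at 5.07, 5.08, 4.52 and 4.82 FPKM (-0.10, SE 0.07), and Adarb1, the relative of Adar, at 2.45, 2.67, 2.88 and 3.04 FPKM (0.15, SE 0.09).

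Of interferon-stimulated genes, a class that transfected double-stranded RNA can induce, 14 were listed, 11 matched and 8 tested. Of these 8, 4 fell, none rose and 4 did not pass in limma, with a median of -0.20. Among all tested genes 2.62% were called lower. The list was drawn up with an earlier result of lower interferon genes in these data known, so it is not independent evidence of that direction. Irf1, a transcription factor, fell from 41.2 and 41.3 FPKM to 30.9 and 30.3 FPKM (-0.42, SE 0.04, limma adjusted p = 0.00636). The chemokine gene Cxcl10 fell by 0.91, the oligoadenylate synthetase-like gene Oasl2 by 0.55 and the tetherin gene Bst2 by 0.22 on the log2 scale. Cxcl10 was low, at 4.17, 3.30, 1.71 and 1.31 FPKM on 85, 53, 27 and 18 reads. Oasl2 was at 3.97, 3.84, 2.35 and 2.36 FPKM. The log2(FPKM + 1) scale understates changes at such levels. In limma-voom Cxcl10 was at -1.29, Oasl2 at -0.73 and Bst2 at -0.23. When Luc replicate 1 or 2 was left out, all 4 calls were lost (adjusted p = 0.0532 to 0.209), and Oasl2 and Bst2 also lost theirs without Tox4 replicate 1 (0.0525 and 0.0728). Fitting no intensity trend ended the calls of Cxcl10, Irf1 and Bst2 (0.0654, 0.0531 and 0.123), and keeping genes of low values that of Bst2 (0.0623). Cd68, a marker of macrophages, was lower in the same libraries (11.4 and 12.9 FPKM against 7.28 and 7.85 FPKM), and its part in these changes and in that of Mov10 was not tested.

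A motif of interferon-responsive promoters, 2 copies of GAAA with 2 bases of any kind between them, was searched on both strands of RefSeq promoters (250 bases before to 50 after a start, GRCm38.p6). It was in 3.44% of 32851 promoters, in 5 of 11 promoters of 9 interferon-stimulated genes of the list and in 0 of 12 promoters of 9 members. Ago2 had no entry. A missing match says only that these letters are not in these windows.

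The products of the machinery could be seen only indirectly, since mature microRNAs carry no poly(A) tail and were not measured. The table held 99 rows of microRNA hairpins, of which 40 were tested. Of these 3 fell, where 2.62% of all tested genes were lower, and none rose. Those that fell, Mir291b, Mir293 and Mir295, belong to the Mir290 cluster on chromosome 7, the microRNA cluster best known from mouse embryonic stem cells. They are shown with the seed (bases 2 to 8) in capitals, together with the other 3p arms of this cluster and of the Mir302 cluster on chromosome 3 that RefSeq (GRCm38.p6) gave for rows of the table, because the clusters share a seed.
mmu-miR-291a-3p: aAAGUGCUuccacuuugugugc
mmu-miR-294-3p: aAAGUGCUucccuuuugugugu
mmu-miR-295-3p: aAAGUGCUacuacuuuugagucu
mmu-miR-302b-3p: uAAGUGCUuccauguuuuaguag
mmu-miR-302d-3p: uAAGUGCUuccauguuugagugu
mmu-miR-291b-3p: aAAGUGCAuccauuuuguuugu
mmu-miR-293-3p: aGUGCCGCagaguuuguagugu
mmu-miR-367-3p: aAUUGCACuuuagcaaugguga
The first 5 share the seed AAGUGCU. Of the hairpins that fell, Mir295 has this seed, Mir291b differs from it in the last seed base, and Mir293 has another seed.

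Mir291b held 21 and 14 reads with Luc esiRNA and 5 and 3 with Tox4 esiRNA, and Mir295 held 13, 10, 2 and 2. Mir293 held 10, 13, 0 and 1 reads. With Tox4 esiRNA it was at 0 and 0.956 FPKM, so it passed the filter of 1 FPKM only through the Luc libraries. Its place among the tested rows thus depended on the group where it was high. In each of these hairpins the Luc libraries were above the Tox4 libraries. The log2 fold changes were -1.59 (SE 0.15, limma adjusted p = 0.00792), -1.78 (SE 0.08, 0.00181) and -2.73 (SE 0.35, 0.0174), on a scale that understates low values. The call of Mir293 was lost without Luc replicate 1 or 2 (0.0523 and 0.0862) and with a pseudocount of 0.1 (0.0630), and that of Mir291b without Luc replicate 1 (0.0517). Fitting no intensity trend ended both (0.0688 and 0.0531). The limma-voom SEs were wider, at 0.44 for Mir291b, 0.51 for Mir295 and 0.72 for Mir293. The small limma SEs, such as 0.08 for Mir295, should therefore not be read as the precision of these changes. Each hairpin was still called lower by limma-voom (adjusted p = 0.0146, 0.0168 and 0.00331, in the same order).

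The 6 rows of the Mir290 cluster together held 55 and 50 reads in the Luc libraries and 12 and 9 in the Tox4 libraries. Most of these reads were on Mir291b, Mir293 and Mir295, which were picked because they were called lower, so the sum is not further support. Mir291a held 2, 5, 0 and 1 reads, Mir292 held 3, 3, 2 and 2, and Mir294 held 6, 5, 3 and 0. None of these other rows passed. The 4 rows of the Mir302 cluster held 11, 12, 12 and 5 reads, and none of these 4 passed. With 0 to 5 reads in each row and library, this cannot set the 2 clusters apart. The reads are not scaled to depth, which ran from 12778047 reads (Tox4 replicate 2) to 19008811 (Luc replicate 1). All 6 hairpins of the Mir290 cluster lie within exons of Nlrp12 on the opposite strand, and whether counting used strand is not given in the sources used here. Which transcripts these reads come from was not tested, and they say nothing of the amount of mature microRNA.

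**Figure D5:**
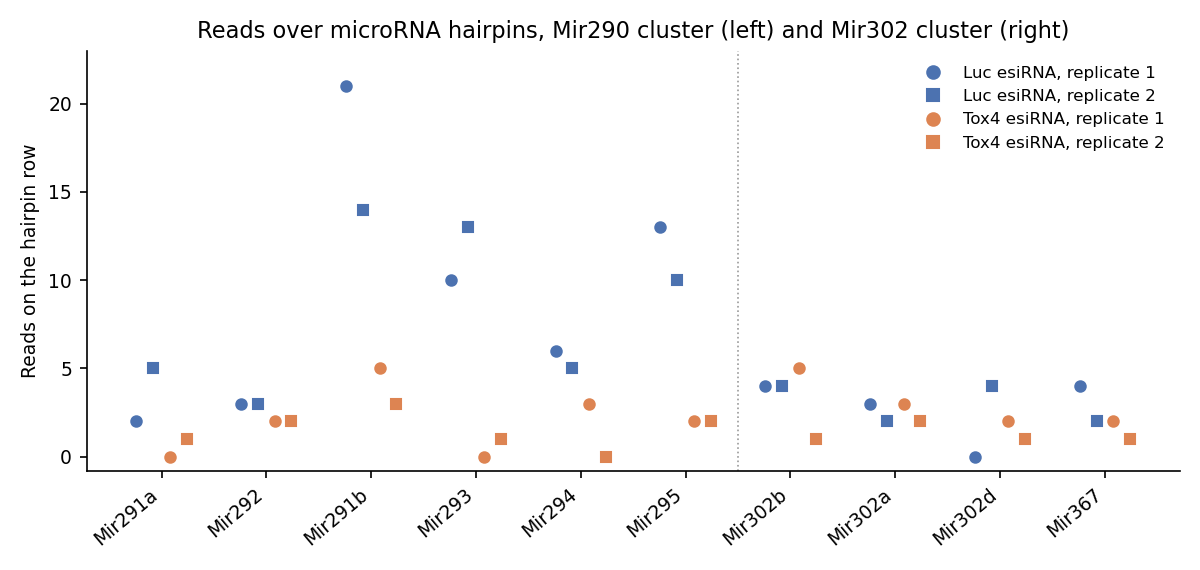
Reads over each hairpin row (y axis) of the Mir290 cluster (left of the dotted line) and of the Mir302 cluster (right), in the 4 libraries (circles, replicate 1; squares, replicate 2; blue, Luc; orange, Tox4). The Luc libraries hold up to 21 reads on Mir291b and the Tox4 libraries at most 5 on any row. Reads are not scaled to library depth, which was lower in the Tox4 libraries.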

How the data were processed

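The authors deposited FPKM values of 15429 Ensembl genes for 4 libraries, in a table of the series and in 4 library files with identical values. Per the submitters' processing notes, CASAVA 1.8, STAR 2.3.0e and GRCm38.p1 were used. For the counting program and the annotation, and for whether strand was used, the entry is not given in the sources used here. Read numbers and gene lengths were worked back from the FPKM values as whole numbers (100% of values, relative tolerance 1e-10), for 4.43% of genes after choosing a common factor. The smallest whole length that matched was taken, so the reads and length of a gene can be too small by a common factor. On simulated tables at least 96.2% of 15126 genes were returned. Gene positions came from GENCODE M21 (GRCm38), which held 98.7% of the identifiers.

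The filter kept genes averaging 1 FPKM or more, which were tested on log2(FPKM + 1), which understates changes of low genes, with limma 3.58.1 (R 4.3.3, intensity trend, two-sided, Benjamini-Hochberg over 12403 genes, threshold 0.05). All 4 libraries entered, leaving 2 residual degrees of freedom. On 5 simulations with 200 changed genes it recovered 18.5%, 58.2% and 80.0% of 1.3-fold, 1.5-fold and 2-fold changes, and 12.1% of calls were false. The spread beyond counting error was assumed there, with the same value for all genes. Members, lists and tests were chosen with earlier results of these data known. List genes named are up to 4 past the threshold, or else the 2 with the largest change; others are named as members of the pathway after their values were seen. Hairpin rows past the threshold and the 3 genes nearest to Dicer1 were named by rule too. limma-voom, on reads scaled by library totals, and the sums of both Ago2 rows were added after seeing the data.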

Additional observations from a re-analysis of the deposited data

How the results depend on the processing

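The count of members past the threshold was 0 in each of these fits (pseudocounts of 0.1 and 0.5, no filter on low values, a minimum of 5 FPKM, no intensity trend, median-ratio rescaling, a replicate block and each library left out), while limma-voom called 1, Xpo5. Over all genes 234 were higher and 325 lower. These counts were 146 and 202 without the filter, 365 higher with a minimum of 5 FPKM, 33 and 45 without the trend, and 738 and 728 in limma-voom. With 1 library left out they ran from 27 to 176 and from 34 to 296. The calls in the related lists numbered 5, but 1 without the trend, 12 in limma-voom and 0 to 5 with 1 library left out. With 1 library in a group, that library is assumed to vary like those of the other group.

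Several changes turned sign with 1 library left out. Among them were Dicer1 (-0.028 to 0.051) and the first and second Ago2 rows (-0.13 to 0.16 and -0.23 to 0.012). Ago3 (-0.11 to 0.033) and Pou5f1 (-0.0059 to 0.066) turned too. So did Gmfb (-0.028 to 0.046), Ccna2 (-0.018 to 0.058) and Bmyc (-0.034 to 0.045). The turn came without Tox4 replicate 2 for Ago3 and Pou5f1, without Tox4 replicate 1 for the others and, for the first Ago2 row, also without Luc replicate 1 (-0.06).

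Replicate numbers are shared by the groups, but same-numbered libraries did not deviate together (correlation -0.04). With the replicate number as a block, 222 genes were higher and 334 lower, 0 members passed, and the lists held 5 calls.

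Ago4, at 32 to 43 recovered reads, and the hairpin rows were limited by depth.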
